A study of Xenopus laevis with 3 samples.

Results

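The genes clu, tf, ptgds and wt1 encode clusterin, transferrin, lipocalin-type prostaglandin D synthase and the transcription factor WT1, and all 4 are used as genes of Sertoli cells. Their rows were found by symbol, after removal of the ending .L or .S that marks the copy of a gene on an L or an S chromosome of this allotetraploid frog. This gave 6 of 34694 rows, namely clu.L, wt1.L, wt1.S, tf.L, tf.S and ptgds.S. No row named clu.S or ptgds.L was found by symbol, so L and S copies could be compared for wt1 and tf only. Poly-A RNA of whole testis, described as mixed testis cells, came from untreated Xenopus laevis males of outcrossed laboratory stock, in 3 libraries with different processing dates. There was 1 group and no treatment or genotype to compare. The comparisons are therefore between gene copies, between genes and between libraries. The labels do not say that the 3 males were different animals, so every spread and p-value describes these libraries, whose differences may be technical.

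Sertoli cells line the seminiferous epithelium and carry the germ cells through meiosis and sperm formation. Because tight junctions between them close off the inner compartment, they secrete carrier and protective proteins into it. In rats, clusterin, an extracellular chaperone that binds misfolded proteins and lipids, and transferrin, the plasma iron carrier, are among the main proteins that Sertoli cells secrete. WT1 is a zinc finger factor that Sertoli cells need to keep their identity in mice. Lipocalin-type prostaglandin D synthase both carries small hydrophobic molecules and makes prostaglandin D2, which acts upstream of the testis factor SOX9 in the fetal mouse gonad. Transferrin is also a major product of the liver. RNA from whole testis cannot place a transcript in 1 cell type, so the Sertoli origin of these counts was not tested.

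Clusterin was abundant in all 3 libraries, wt1 stood at a moderate level, tf was low, and ptgds did not reach the limit set for detection. The deposited TPM scales counts to gene length and library, and allows levels of different genes to be set side by side. For clu.L it was 287, 332 and 429 TPM in the replicate 1, 2 and 3 libraries, a mean of 349 ± 72.8 TPM (SD, n = 3). Its lowest library lay above every library of the other 5 rows, and 98.9% of all rows had a lower mean TPM.

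The zinc finger gene wt1 came next through its L copy. The level of wt1.L was 13.5, 7.95 and 10.7 TPM in the replicate 1, 2 and 3 libraries, with a mean of 10.7 ± 2.79 TPM (SD, n = 3). That of wt1.S was 4.38, 3.78 and 4.09 TPM, with a mean of 4.08 ± 0.302 TPM (SD, n = 3). In each library the L copy lay above the S copy, and the values of the copies did not overlap. By mean TPM, 68.3% of all rows lay below wt1.L and 53.0% below wt1.S. Among detected rows only, by the limit given below, it was 52.6% for wt1.L and 30.0% for wt1.S.

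Transferrin, the iron carrier, was low from both copies. The level of tf.L was 1.46, 1.40 and 3.25 TPM in the replicate 1, 2 and 3 libraries, a mean of 2.04 ± 1.05 TPM (SD, n = 3), and the replicate 3 library stood apart from the other two. The level of tf.S was 0.920, 0.287 and 0.560 TPM, a mean of 0.589 ± 0.318 TPM (SD, n = 3), with the replicate 2 library lowest. By mean TPM, 44.1% of all rows lay below tf.L and 30.1% below tf.S. Among detected rows only, it was 17.3% for tf.L and 2.93% for tf.S. Prostaglandin D synthase, ptgds.S, had 0.740, 0.611 and 0.860 TPM, a mean of 0.737 ± 0.125 TPM (SD, n = 3), and rested on 27, 22 and 28 counts.

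**Figure D1:**
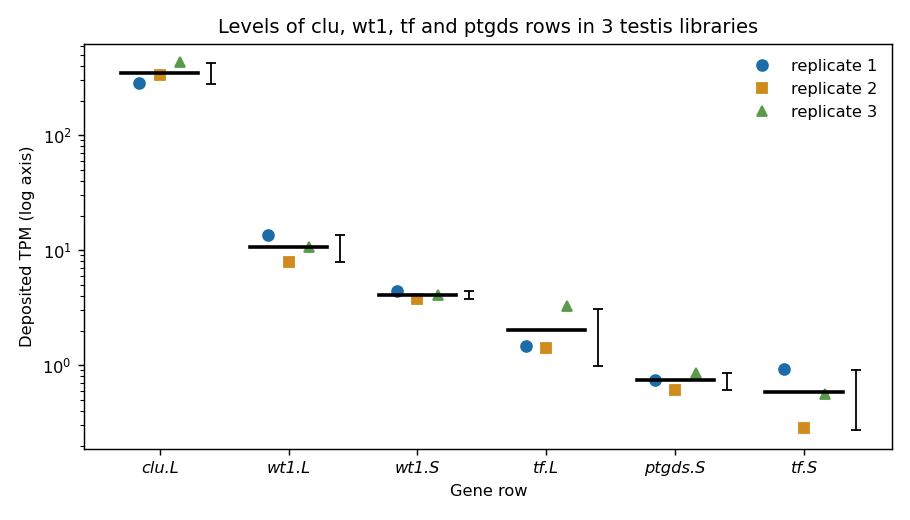
Deposited TPM on a log axis for the 6 rows of clu, wt1, tf and ptgds, with 1 point per library, a line at the mean and a bar of ± 1 SD (n = 3). The 3 clu.L points lie between 287 and 429 TPM, above every point of the other 5 rows, and the points of ptgds.S and tf.S overlap.

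Detection required 0.5 CPM (counts scaled to a common library size) and more than 3 counts in every library, which 66.7% of all rows met. Of the 6 rows, 5 were detected and ptgds.S was not. The CPM of ptgds.S was 0.358, 0.336 and 0.467 in the replicate 1, 2 and 3 libraries, with exact Poisson intervals of 0.236 to 0.521, 0.211 to 0.509 and 0.311 to 0.676 at 95% confidence. All 3 values lay below the limit of 0.5, while each interval reached past it. Taken 1 at a time, the libraries thus did not place ptgds.S below the limit by more than counting error. Their counts were not pooled for this. Such intervals cover counting error only.

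In the order of mean TPM, neighbouring rows were set against each other within each library. That order came from these same libraries, so positive mean gaps were largely set in advance. The gap of clu.L over wt1.L was 5.04 ± 0.55 on the log2 TPM scale (SD, n = 3), or 32.8-fold. That of wt1.S over tf.L was 1.12 ± 0.68, and that of tf.L over ptgds.S was 1.36 ± 0.49. These gaps, and that of wt1.L over wt1.S, were positive in 3 of 3 libraries. Exact two-sided permutation of the signs gave p = 0.25 for each, which is the floor with 3 libraries, and 0.312 after Benjamini-Hochberg adjustment over the 5 gaps. With that floor the test could not separate the rows of any of the 5 gaps. The gap of ptgds.S over tf.S, 0.47 ± 0.71 on the log2 TPM scale, was smaller than its own spread and positive in 2 of 3 libraries (exact p = 0.5). The order of ptgds.S and tf.S by TPM thus differed between these libraries, and their levels were not told apart. Their order turns round when length is left out, since the ptgds.S gene model is 555 bases long and that of tf.S 2150 bases.

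Both genes with 2 copies had more transcript from L than from S. For wt1, whose L and S models have the same length of 1233 bases, L supplied 1097, 636 and 776 counts in the replicate 1, 2 and 3 libraries, against 355, 302 and 296 from S. L therefore held 75.6%, 67.8% and 72.4% of the wt1 counts, with exact binomial (Clopper-Pearson) intervals at 95% of 73.3 to 77.7%, 64.7 to 70.8% and 69.6 to 75.0%. The share of L was higher in the replicate 1 library than in the replicate 2 library by more than counting error, and lay well above equal parts in all 3. A fit by edgeR (quasi-likelihood), blocked by library, covered the 6627 of 7764 L and S pairs that passed a filter on low counts. In this fit the log2 ratio of wt1.L to wt1.S was 1.36 (SE 0.218, adjusted p = 0.0045, edgeR), or 2.57-fold. This call held without each library in turn, with ratios from 1.23 to 1.51 on the log2 scale.

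The transferrin copies differed too, but the libraries gave different ratios. The tf.L row had 202, 191 and 401 counts in the replicate 1, 2 and 3 libraries, against 130, 40 and 70 counts for tf.S. L held 60.8% of the tf counts in the replicate 1 library (interval 55.4 to 66.1%), 82.7% in the replicate 2 library (77.2 to 87.3%) and 85.1% in the replicate 3 library (81.6 to 88.2%). The replicate 1 library had the lowest share of L, and its interval did not meet those of the other two. The log2 ratio of tf.L to tf.S was 1.83 (SE 0.488, adjusted p = 0.0241, edgeR's quasi-likelihood test), with L higher in 3 of 3 libraries. The call was lost without replicate 2, at 1.60 (adjusted p = 0.107, edgeR), and without replicate 3, at 1.45 (adjusted p = 0.103, edgeR), and kept without replicate 1, at 2.42.

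Such differences between copies were common in these testes. The same test called 61.1% of all tested pairs, and 34.4% of the tested pairs were called with L higher. Against that background, calls for 2 of 2 pairs with L higher show nothing particular to wt1 and tf. A log2 ratio of L to S at least as high as that of wt1 was fitted for 20.9% of the tested pairs. One at least as high as that of tf was fitted for 14.9%. How reads that match both copies were counted is not given in the sources used here, which leaves ratios of near-identical copies uncertain. Among the 23 tested pairs of the wider Sertoli list, L was higher in 10, wt1 and tf included, and S in 2. Pairs of the list with L higher by more than for tf were cyp26b1, inhba, gja1 and gata1. On the log2 scale, cyp26b1, which encodes a retinoic acid hydroxylase, was at 8.04 (SE 0.470) and the inhibin subunit gene inhba at 6.41 (SE 0.284). The connexin gene gja1 was at 4.83 (SE 0.680) and the GATA factor gene gata1 at 4.01 (SE 0.591). In each of these pairs the S row did not meet the limit for detection, so the ratios rest on few S counts. The pair lhx9, for a LIM homeobox factor, differed about as much as tf in the other direction, at -1.84 (SE 0.457, adjusted p = 0.0193, edgeR). The Sertoli factor gene sox9, at -0.62 (adjusted p = 0.0587, edgeR), and the anti-Müllerian hormone gene amh, at -0.36 (adjusted p = 0.0718, edgeR), did not pass the test.

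**Figure D2:**
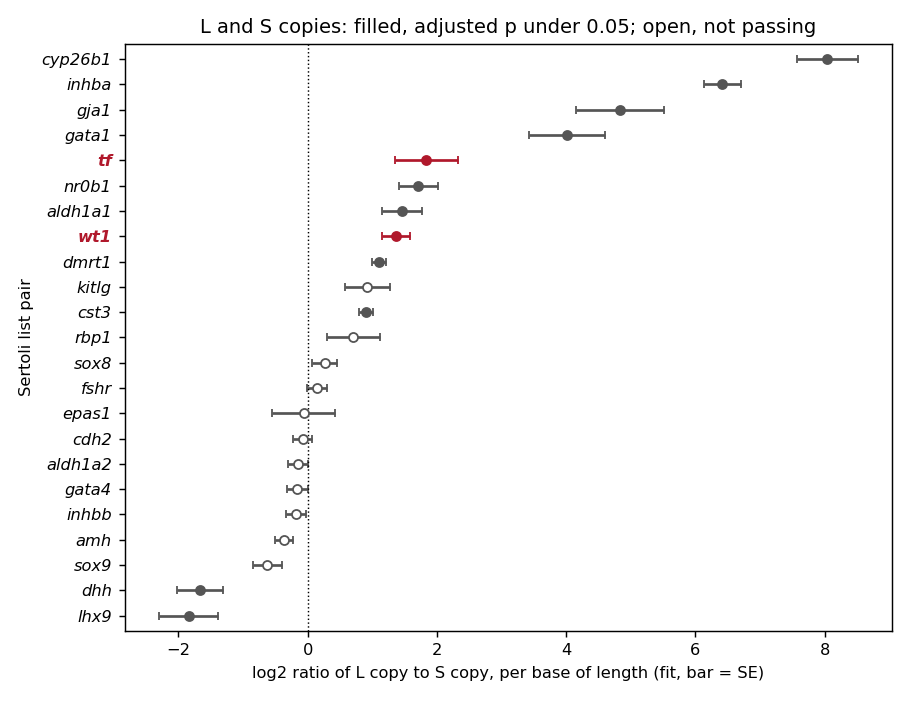
Fitted log2 ratio of the L to the S copy, per base of gene length, for the 23 tested pairs of the Sertoli list, with bars of ± 1 SE. Filled points passed an adjusted p of 0.05. The ratios of tf (1.83) and wt1 (1.36), in red, lie to the right of 0 among the 10 pairs with L higher.

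Set among 60 rows of the Sertoli list, the 4 genes were spread from the second to the 50th place by mean TPM. These rows cover 34 of the 42 symbols of the list, since the others matched no row by name. Of the 60 rows, 48 were detected, where 66.7% of all rows were. The list had a median of 6.89 TPM, against 3.25 TPM over all rows. It shares dmrt1 with the germ cell list, gata1 with the erythrocyte list, tf with the liver list, and wt1 and aldh1a2 with the list for mesothelium, epicardium and podocytes. The row clu.L was 2 of 60, below cst3.L, the copy of the cysteine protease inhibitor cystatin C, which had 394 ± 6.29 TPM (SD, n = 3). The ranges of clu.L, 287 to 429 TPM, and of cst3.L, 387 to 398 TPM, overlapped. Next below clu.L stood dmrt1.L, a transcription factor copy that germ cells may also express, at 238 ± 47.2 TPM, cst3.S at 212 ± 13.7 TPM and the inhibin alpha copy inha.L at 204 ± 85.6 TPM.

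The other rows of the 4 genes stood lower in that order. The row wt1.L was 27 of 60, between the steroidogenic factor copy nr5a1.L at 12.4 ± 1.47 TPM and inhba.L at 10.6 ± 1.07 TPM, and its range overlapped with both. The row wt1.S was 36 of 60, tf.L was 45, ptgds.S was 48 and tf.S was 50. The detected row below tf.S was lhx9.L, the copy of a LIM homeobox factor, at 0.522 ± 0.0728 TPM.

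**Figure D3:**
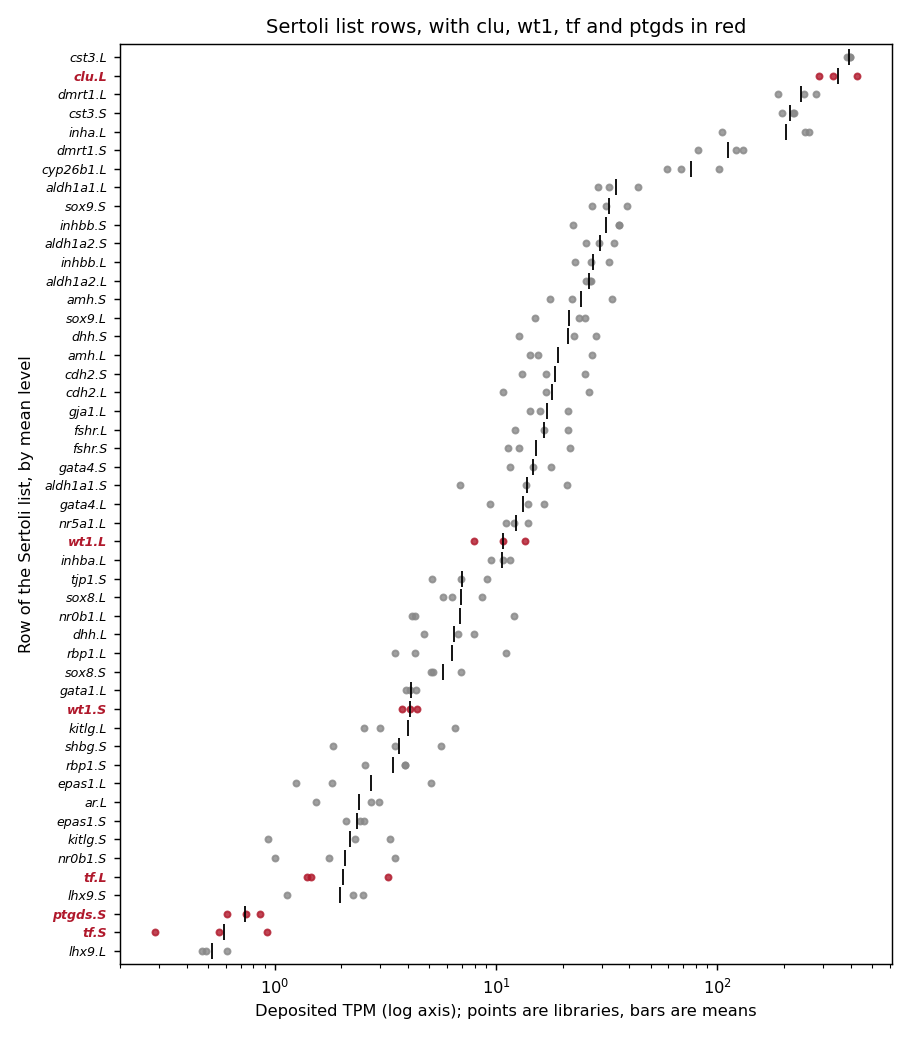
Deposited TPM on a log axis for the 48 detected rows of the Sertoli list and for ptgds.S, ordered by mean, with 1 point per library and a black bar at the mean. The rows of clu, wt1, tf and ptgds, in red, run from clu.L at 349 TPM near the top to tf.S at 0.589 TPM near the bottom.

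Between the libraries, the 4 genes did not move together. By CPM, clu.L was lowest in the replicate 1 library and highest in the replicate 3 library, at 336, 442 and 565 CPM in the replicate 1, 2 and 3 libraries, and the highest was 1.68 times the lowest. With wt1.L, at 14.5, 9.73 and 12.96 CPM, the replicate 1 library was highest and replicate 2 lowest. The row wt1.S varied little, at 4.71, 4.62 and 4.94 CPM, a coefficient of variation of 3.52%, which was below the 5.81% that counting error alone gives for its lowest count. Of 5923 detected rows within 2-fold of its mean CPM, 1.67% had a lower coefficient of variation than wt1.S, against 51.0% of 7745 such rows for wt1.L.

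Transferrin varied more than the others, and its copies did so in different libraries. The row tf.L had 2.68, 2.92 and 6.69 CPM in the replicate 1, 2 and 3 libraries, a 2.50-fold range that was 1.09-fold without replicate 3. The row tf.S had 1.72, 0.612 and 1.17 CPM, a 2.82-fold range that was 1.91-fold without replicate 1 and 1.48-fold without replicate 2. These were the 2 of 5 detected rows with a range over 2-fold, which 21.2% of all detected rows had. The coefficient of variation was 55.0% for tf.L and 47.6% for tf.S, against a median of 20.7% over all detected rows. Of 5648 detected rows within 2-fold of its mean CPM, 85.3% had a lower coefficient of variation than tf.L. For tf.S it was 76.0% of 3188 such rows. For clu.L, with a coefficient of variation of 25.6%, it was 81.5% of 610 such rows, so for its level clu.L lay above tf.S. Of the 5 rows, 3 were highest by CPM in the replicate 3 library, as were 28.6% of all detected rows.

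The libraries also differed in markers of other testis cells, which belongs beside these ranges. The summed TPM of the Leydig list was 721, 974 and 1656 in the replicate 1, 2 and 3 libraries, with 14 of 14 rows detected. Of these rows, 3, 3 and 8 were highest by CPM in the replicate 1, 2 and 3 libraries. The row scarb1.L, at 106, 38.7 and 60.3 TPM, was among those highest in replicate 1. The summed TPM of the peritubular and smooth muscle list was 381, 729 and 1795, with 17 of 17 rows detected and 16 of them highest in the replicate 3 library. Over the whole data, 66.7% of rows were detected, and 28.6% of detected rows were highest in replicate 3. The sums of the Leydig and smooth muscle lists had the same library order as clu.L, which not every row of them had. The summed TPM of the leukocyte list was 94.99, 75.3 and 267, with 9 of 14 rows detected. Replicate 3 was highest, as for tf.L, and much of that rise was in 1 row, mpo.S, at 2.14, 1.49 and 131 TPM. Of the 9 detected rows, 1, 2 and 6 were highest by CPM in the replicate 1, 2 and 3 libraries. No row of these 3 lists was at 0 in all libraries. The Sertoli list without clu, tf, ptgds and wt1 summed to 1935, 1448 and 1796 TPM, lowest in the replicate 2 library. By TPM, every row of the 4 genes except clu.L was lowest there too. For tf.L the margin was small, at 1.40 TPM against 1.46 TPM in replicate 1, and by CPM its lowest library was replicate 1. The germ cell list summed to 4355, 4784 and 4250 TPM, with 19 of 19 rows detected. The endothelial list, with 16 of 16 rows detected, summed to 68.5, 75.4 and 68.5 TPM. Of its rows, 5, 3 and 8 were highest by CPM in the replicate 1, 2 and 3 libraries. Its median departure from the row mean was -0.14, -0.19 and 0.29 log2 CPM, highest in replicate 3 unlike the sum. The erythrocyte list, with 8 of 14 rows detected, summed to 148, 126 and 65.4 TPM. The part of any of these cells in the levels of the 4 genes was not tested. In whole testis, fewer cells of a type and less RNA per cell cannot be told apart.

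**Figure D4:**
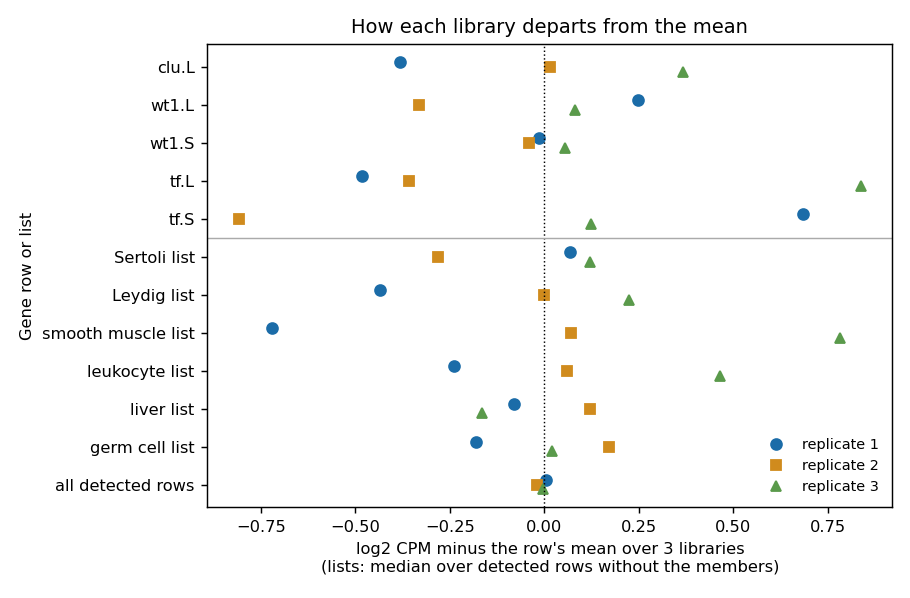
For each library, the log2 CPM minus the mean of the 3 libraries, for the 5 detected rows of clu, wt1 and tf and, below the line, the median over the detected rows of each list without those genes. For clu.L the replicate 1 library lies at -0.38 and replicate 3 at 0.37, the order also seen in the smooth muscle list (-0.72 and 0.78), while the points of wt1.S lie within 0.06 of 0.

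Both wt1 and clu were set against other genes of the Sertoli list within each library, and the spread of the ratio depended on the gene it was taken to. Summed over copies, wt1 was 0.285, 0.253 and 0.283 times the level of sox9 in the replicate 1, 2 and 3 libraries, a log2 ratio of -1.87 ± 0.10 (SD, n = 3). These 3 ratios differed by at most 1.13-fold, while the summed wt1 level itself was 17.9, 11.7 and 14.8 TPM. The ratio of wt1 to amh was 0.296, 0.370 and 0.395, and that of wt1 to the GATA factor gene gata4 was 0.627, 0.561 and 0.434. That of wt1 to the steroidogenic factor gene nr5a1 was 1.49, 1.06 and 1.06, highest in replicate 1. The range of the wt1 ratio was thus narrowest to sox9 of these 4 genes and reached 1.44-fold to gata4. The ratio of clu.L to sox9 was 4.56, 7.16 and 8.20 in the same libraries, and the ratio to amh was 4.74, 10.5 and 11.4. Relative to both genes, clu.L was lowest in the replicate 1 library, with a 1.80-fold range of the ratio to sox9 and a 2.41-fold range of that to amh. The ratio to cystatin C, summed over both cst3 copies, was 0.463, 0.548 and 0.723, again lowest in replicate 1. The ratio to inha was 1.11, 3.15 and 1.73, a 2.84-fold range with replicate 2 highest. The genes sox9, amh, nr5a1, gata4, cst3 and inha were chosen for these ratios after their levels had been seen, and no test was made of them.

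Partners of WT1 and genes around it were measured as a list. Of its 54 rows, 40 were detected, where 66.7% of all rows were, with a median of 3.60 TPM. The WT1-associated splicing partner gene wtap was at 36.0 ± 0.885 TPM for wtap.L and 42.6 ± 2.12 TPM for wtap.S (SD, n = 3). The gene of the corepressor BASP1 was at 58.2 ± 6.89 TPM for basp1.L and 73.0 ± 7.33 TPM for basp1.S, and that of beta-catenin, ctnnb1, at 45.6 ± 8.75 TPM for ctnnb1.L and 68.8 ± 11.5 TPM for ctnnb1.S. All 6 rows lay above wt1.L in each library. WT1 also marks mesothelium. In the list for mesothelium, epicardium and podocytes, 13 of 19 rows were detected, among them upk3b.L at 10.04 ± 6.50 TPM and the mesothelin copy msln.L at 0.831 ± 0.244 TPM. Its summed TPM without wt1 was 164, 139 and 135 in the replicate 1, 2 and 3 libraries. The part of such cells in the wt1 level was not tested.

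Genes of iron handling were measured as a list beside the low transferrin level. Of its 26 rows, 24 were detected, where 66.7% of all rows were, with a median of 6.06 TPM. Transferrin, summed over both copies, was at 2.38, 1.68 and 3.81 TPM in the replicate 1, 2 and 3 libraries, against 20.4, 10.7 and 13.3 TPM for its receptor gene tfrc. The log2 ratio of tf to tfrc was -2.52 ± 0.66 (SD, n = 3), so tf lay below its receptor in 3 of 3 libraries. The iron exporter gene slc40a1, summed over copies, was at 12.5, 13.3 and 25.8 TPM, with replicate 3 highest as for tf.L. Of the 24 symbols of the list, 16 matched a row by name. The ferritin genes fth1 and ftl did not, so their levels were not measured here. Among the rows found, ftmt.S, named for mitochondrial ferritin, an iron store, was highest at 974 ± 98.9 TPM. It was followed by ncoa4.S, a receptor for ferritin breakdown, at 30.6 ± 5.38 TPM and the cytosolic aconitase copy aco1.L at 27.7 ± 7.99 TPM. The mitochondrial iron importer slc25a28 was at 20.4 ± 5.15 TPM for slc25a28.L and 22.5 ± 3.93 TPM for slc25a28.S, and ncoa4.L was at 22.4 ± 2.74 TPM. Of 9 tested iron pairs, 2 passed, fewer than the 61.1% of all tested pairs that did. Both had S higher, slc40a1 at -2.63 (SE 0.329, adjusted p = 0.00213, edgeR) and slc11a2, an iron importer, at -1.66 (SE 0.191, adjusted p = 0.00164, edgeR). The pair tfrc, at -0.27 (adjusted p = 0.243, edgeR), did not pass.

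Since transferrin is a liver product too, plasma proteins made by the liver were measured as a list. Of its 24 rows, 15 were detected, where 66.7% of all rows were, with a median of 0.844 TPM. Without tf the list summed to 101, 85.4 and 128 TPM in the replicate 1, 2 and 3 libraries. Most of this came from ambp.L, which encodes alpha-1-microglobulin and bikunin, at 70.7 ± 23.8 TPM. Below it stood the fibrinogen beta chain copy fgb.L at 6.87 ± 3.07 TPM and the albumin copy alb.S at 6.83 ± 4.47 TPM. The rows ahsg.L, at 5.53 ± 1.57 TPM, and f2.L, at 3.32 ± 0.555 TPM, came next (SD, n = 3). Among other detected rows, serpinc1.S was at 1.80 ± 0.367 TPM and vtga2.L at 1.74 ± 1.08 TPM. Some rows were near the floor. The rows of fga, a fibrinogen chain, and ttr.L, the copy of transthyretin, had at most 6 counts in any library, and both fga rows had 0 in replicate 2. The other transthyretin copy, ttr.S, had 19, 17 and 4 counts in the replicate 1, 2 and 3 libraries. The ratio of tf to the fibrinogen beta chain gene fgb, summed over copies, was 0.342, 0.373 and 0.367 in the replicate 1, 2 and 3 libraries, and that of tf to albumin was 1.04, 0.150 and 0.544. The ratio of tf to fgb thus had a 1.09-fold range over these libraries, and its ratio to albumin a 6.95-fold range. Without tf, the median departure of the liver list from the row mean was -0.08, 0.12 and -0.17 log2 CPM in these libraries. For tf.L it was -0.48, -0.36 and 0.84, and for tf.S 0.69, -0.81 and 0.12. Of the 15 detected rows, tf included, 4 were highest by CPM in replicate 3, against 28.6% of all detected rows. The ratios to fgb and albumin were chosen after the levels had been seen, and the part of liver RNA in the tf level was not tested.

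The other type of prostaglandin D synthase was far more abundant than ptgds. The gene hpgds encodes the haematopoietic form, a glutathione transferase that makes the same prostaglandin and is unrelated in sequence. The row ptgds.S stood at 0.740, 0.611 and 0.860 TPM in the replicate 1, 2 and 3 libraries, against 1575, 1592 and 1450 TPM for hpgds.L and hpgds.S together. The log2 ratio of ptgds.S to hpgds was -11.04 ± 0.31 (SD, n = 3), so ptgds.S averaged 0.0482% of the hpgds level. The copies of hpgds were at 747 ± 39.6 TPM for hpgds.L and 792 ± 109 TPM for hpgds.S. Whether the hpgds rows count the enzyme or a related glutathione transferase rests on the gene name alone.

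Of the 31 rows of the prostaglandin list, 22 were detected, where 66.7% of all rows were, with a median of 1.81 TPM. The prostaglandin E synthase and cochaperone copy ptges3.L was at 66.4 ± 2.67 TPM, the reductase copy akr1c1.L at 28.1 ± 10.9 TPM and the phospholipase copy pla2g4a.L, which releases the precursor arachidonic acid, at 23.7 ± 0.701 TPM. The degrading enzyme copy hpgd.S was at 15.9 ± 3.66 TPM (SD, n = 3 throughout). Of 16 rows for lipocalins and retinoid carriers, the family and ligands to which ptgds belongs, 10 were detected. They were led by ambp.L and by the retinoic acid binding copy crabp2.L at 20.7 ± 18.2 TPM.

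**Figure D5:**
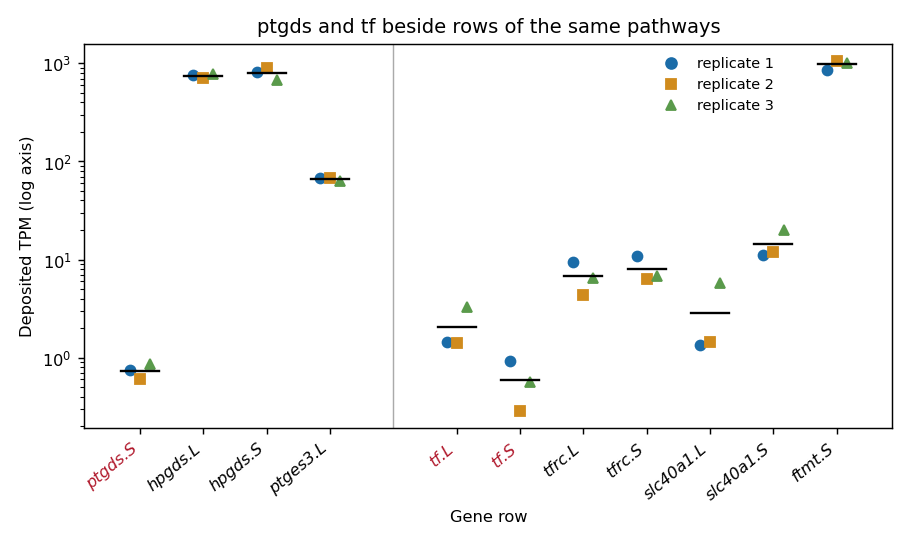
Deposited TPM on a log axis for ptgds.S beside prostaglandin synthases (left of the grey line) and for tf.L and tf.S beside iron genes (right), with 1 point per library and a line at the mean. The ptgds.S points lie between 0.611 and 0.860 TPM, and those of the hpgds copies between 675 and 890 TPM.

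Receptors and intracellular chaperones were listed for clusterin, which is folded in the secretory pathway and taken up by lipoprotein receptors. Of 30 rows, 27 were detected, where 66.7% of all rows were, with a median of 13.3 TPM. The disulfide isomerase copies pdia3.L and pdia3.S were at 219 ± 31.8 and 212 ± 64.1 TPM, calr.S, for calreticulin, at 181 ± 30.7 TPM, hspa5.S, for the chaperone BiP, at 113 ± 44.0 TPM, canx.L, for calnexin, at 105 ± 23.9 TPM and calr.L at 92.5 ± 34.0 TPM (SD, n = 3). Each of these 6 rows lay below clu.L in each library. Of the list, 16 of the 27 detected rows were highest by CPM in the replicate 1 library, in which clu.L was lowest, against 35.6% of all detected rows.

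The neighbours on the chromosome lay above, near or below the 4 genes in level. In NCBI's gene table for the assembly Xenopus_laevis_v10.1, wt1 lies between eif3m, a translation initiation factor gene, and rcn1, which encodes a calcium-binding protein of the endoplasmic reticulum, on both the L and the S chromosome. The row eif3m.L was at 97.5 ± 5.95 TPM and rcn1.L at 8.29 ± 0.989 TPM, around wt1.L at 10.7 TPM, and the ranges of rcn1.L and wt1.L overlapped. On the S side eif3m.S was at 244 ± 43.0 TPM and rcn1.S at 8.18 ± 2.33 TPM, around wt1.S at 4.08 TPM. The order of the copies was thus L above S for wt1 and S above L for eif3m by mean TPM. Both tf copies lie beside srprb, for a signal recognition particle receptor subunit, which was at 73.7 ± 0.929 TPM for srprb.L and 19.3 ± 4.56 TPM for srprb.S. On their other side lie LOC108717143, at 0.228 ± 0.0336 TPM beside tf.L, and LOC108718206, at 0.0221 ± 0.0194 TPM beside tf.S, and both lay below their tf copy in each library. The row LOC108717276 beside clu.L was at 34.0, 38.1 and 61.7 TPM in the replicate 1, 2 and 3 libraries, the same library order as clu.L. The scavenger receptor copy scara3.L on the other side of clu.L was at 1.12 ± 0.0436 TPM. The neighbours of ptgds.S were low too, with 1.29 ± 0.119 TPM for the complement lipocalin copy c8g.S and 1.68 ± 1.199 TPM for obp.S, named for an odorant-binding lipocalin. That table also lists ptgds among the synonyms of obp.S, which is not counted among the 6 rows because its symbol differs. It had 0.515, 1.61 and 2.91 TPM in the replicate 1, 2 and 3 libraries, below ptgds.S in replicate 1 and above it in the other two.

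Likeness over 3 libraries was measured as the root mean square difference of log2 CPM after each row was centred on its mean, among 18299 other detected rows with a gene name. Nearest to clu.L were ubap1.S at 0.00241, myc.S at 0.00398 and serpinc1.S at 0.00736. Nearest to wt1.L were wfdc1.S, slbp.S and plpp2.L, and to wt1.S psmd3.S, slc52a1.L and ppp1cb.S. Nearest to tf.L were fam43a.L, adgrl4.S and mtmr11.L, and to tf.S rpe65.L, krt12.6.L and syt5.L, with differences from 0.0122 to 0.0163. Many rows share a pattern of only 3 values. Within 0.1 there were 319 rows for clu.L, 1276 for wt1.L, 2492 for wt1.S, 45 for tf.L and 71 for tf.S. Of the Sertoli list, the row nearest to clu.L was gja1.L at 0.0286, to wt1.L tjp1.S, the copy of a tight junction protein, at 0.0312, to wt1.S aldh1a2.L at 0.0597, to tf.L kitlg.L at 0.0756 and to tf.S aldh1a1.S at 0.0490.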

How the data were processed

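Per the labels' protocols, RNA was extracted with an RNeasy kit and the 3 poly-A libraries were built with the TruSeq kit of Illumina. The submitters' processing notes name HISAT2 and featureCounts. Not given in the sources used here are versions, strand setting, feature type and the treatment of multiply matching reads. The authors deposited whole-number counts and TPM per gene, per the file headers, with a gene length in bases, of which 90.9% are multiples of 3 and were taken as coding lengths. The table's blocks name the processing date and were matched to the sample titles. Of its value columns, 6 were not used. Library totals were 70580016, 68378714 and 61212304 counts in the replicate 1, 2 and 3 libraries.

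CPM used edgeR 4.0.16 with TMM factors of 1.07, 0.956 and 0.979. Levels are deposited TPM. L and S copies were tested over 6627 pairs with at least 1 CPM for L and S together in each library, by edgeR (quasi-likelihood), blocked by library, since both copies come from the same RNA, an offset of library size times length, Benjamini-Hochberg adjustment over all pairs and a threshold of 0.05. SE is the log2 ratio over the square root of F. limma 3.58.1 and DESeq2 1.42.0 were alternatives.

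Names matched NCBI's table for 34693 rows. List symbols that matched no row by name were left out of counts, ranks and sums. Rows were found for 10 of 13 Leydig symbols and 9 of 12 leukocyte symbols. The members and the lists were chosen with earlier results of these data known. Named are the 6 rows, up to 6 rows of highest mean TPM in the lists described, the 3 rows of nearest pattern, the neighbouring genes and iron pairs that pass, with further rows of the Sertoli, liver and mesothelium lists, other iron and Sertoli pairs and ratios named after their values were seen.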

Additional observations from a re-analysis of the deposited data

How the results depend on the processing

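The number of pairs called, at 4049, stayed within 1.5 times that value under every scaling, filter, tool, length and block setting tried, from 3198 without replicate 3 to 4328 with DESeq2. Without the replicate block, 3756 pairs were called, and the wt1 and tf ratios were 1.38 and 1.84 (adjusted p = 0.00193 and 0.0191, edgeR), so the block changed neither call. Scaling L and S columns separately moved the median ratio of all tested pairs from 0.15 to -0.003 on the log2 scale. It moved wt1 and tf to 1.21 and 1.68, both still called. The tf ratio ran from 1.45 to 2.42 when 1 library was left out, losing its call without replicate 2 or 3 with fewer samples in the fit. Its adjusted p was at most 0.0304 over the settings that kept all libraries. At a pair filter of 5 CPM tf was not tested. No L to S ratio could be fitted for clu and ptgds, which have 1 row each.

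Without length, the gap of wt1.S over tf.L was 0.35, that of tf.L over ptgds.S 3.29 and that of ptgds.S over tf.S -1.48 on the log2 scale, since the gene lengths differ. The range between libraries was 1.54-fold for clu.L and 1.67-fold for wt1.L with total counts, and 1.497-fold and 1.70-fold with deposited TPM. With 1 library left out it ran from 1.28 to 1.68 for clu.L, from 1.12 to 1.496 for wt1.L, from 1.09 to 2.50 for tf.L and from 1.48 to 2.82 for tf.S. Detection depended on its limit. At 0.1 CPM all 6 rows were detected, ptgds.S included, and at 1 CPM 4 were, without ptgds.S and tf.S, while leaving out 1 library kept the count at 5. Low counts limit ptgds.S and tf.S.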

Other observations

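A few rows of the lists around clu, wt1, tf and ptgds took most of their counts from 1 library, and were picked after their values were seen. The immediate early transcription factor gene egr1, whose product binds a DNA motif like that of WT1, had 34.2, 4.35 and 1.86 TPM for egr1.L in the replicate 1, 2 and 3 libraries, and 27.2, 1.68 and 1.34 TPM for egr1.S. Both copies were thus highest in replicate 1, by 16.4-fold and 18.1-fold over the lowest library by CPM, as was wt1.L, at 1.496-fold. By CPM, 35.6% of all detected rows were highest in that library, while wt1.S was highest in replicate 3. The plasma retinol carrier row rbp4.S had 7, 3 and 533 counts, so it stood out in replicate 3, as tf.L did. The granulocyte peroxidase row mpo.S had 319, 219 and 17354 counts, and the macrophage mannose receptor row mrc1.L 19, 21 and 693 counts, both highest in replicate 3. What these rows share with wt1.L or tf.L was not tested.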
